A study of Citrus sinensis with 4 samples.

Results

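The change in gene expression from 50 to 70 days after full bloom was described in fruit endocarp of the sweet orange cultivar Bingtangcheng. It was taken from the Bingtangcheng library at 70 days and that at 50 days, 2 of the 4 libraries of the series, over all 29036 listed genes. The other 2 libraries, of the cultivar Dahongtiancheng at the same stages, were used for comparison. All 4 were poly(A) RNA libraries of isolated endocarp, and no other treatment or genotype is given in the labels. How many fruits or trees went into a library is not stated. With 1 library a side, no p-value stands behind any difference, and every interval below covers counting error only.

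In citrus the endocarp is the inner layer of the fruit wall, and the juice sacs that form the pulp grow from it into the locules. Young fruit grows first mainly by cell division and then by enlargement of the juice sac cells, whose vacuoles take up water, sugars and organic acids, above all citric acid. Bingtangcheng is a Chinese sweet orange known for sweet fruit of low acidity. The tables give genes by identifier and position and pair them with no names. The labelled tissue could not be checked against marker genes, and the genes below are grouped by level, structure, position and behaviour in the other cultivar rather than by function. The sources used here name no genome build for the positions.

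The Bingtangcheng libraries held 14040916 fragments at 50 days and 16445383 at 70 days. A single fragment was worth 0.0642 CPM at 50 days and 0.0668 CPM at 70 days, where CPM is the count scaled to a common library size with TMM factors. A count of 0 allows a level of up to 3 fragments, or 0.193 and 0.201 CPM. An expression floor of 10 fragments and 1 CPM, to be met at 1 stage or both, was reached by 16199 genes. Another 8692 genes had no fragment at either stage, and 4145 were detected below the floor.

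More genes were lower than higher at 70 days. A gene above the floor was called where the change was 2-fold or more and 1 lay outside the 99% counting interval of the ratio. By this rule 1287 genes were higher (7.94% of those expressed) and 2133 were lower (13.2%). The median fold was 3.01 among the higher genes and 3.86 among the lower ones. At 4-fold and above there were 417 higher and 1011 lower genes, at 8-fold 169 and 440, and at 32-fold 26 and 52. Of the expressed genes, 40.3% had a log2 ratio between -0.32 and 0.32. The middle 50 percentiles of the log2 ratio ran from -0.50 to 0.38. The 99% interval excluded 1 for 9820 genes, 6400 of which were not called because their ratio was under 2-fold. The split depended on the scaling, and total counts in place of TMM factors gave 872 higher and 2997 lower genes and moved the median log2 ratio of the expressed genes from -0.01 to -0.30.

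The higher genes were more abundant than the lower ones. They held 8.80% of the fragments at 50 days (exact 95% binomial interval 8.78 to 8.81) and 21.7% at 70 days (21.7 to 21.7). The lower genes held 9.35% at 50 days (9.33 to 9.36) and 2.07% at 70 days (2.06 to 2.08). Both lists were chosen by the ratio of these libraries, so the direction of these shifts follows from the choice. In Dahongtiancheng, whose ratio took no part in it, the same higher genes held 10.7% at 50 days and 21.7% at 70 days. The same lower genes held 7.46% and 2.50% there. The median level, as the mean of both stages, was 16.1 CPM for the higher genes and 5.87 CPM for the lower genes, against 22.9 CPM for all expressed genes. The gain was concentrated in few genes. The 100 higher genes with the largest differences carried 67.2% of the summed gain in CPM, and the 100 largest among the lower genes carried 51.1% of the summed loss.

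**Figure D1:**
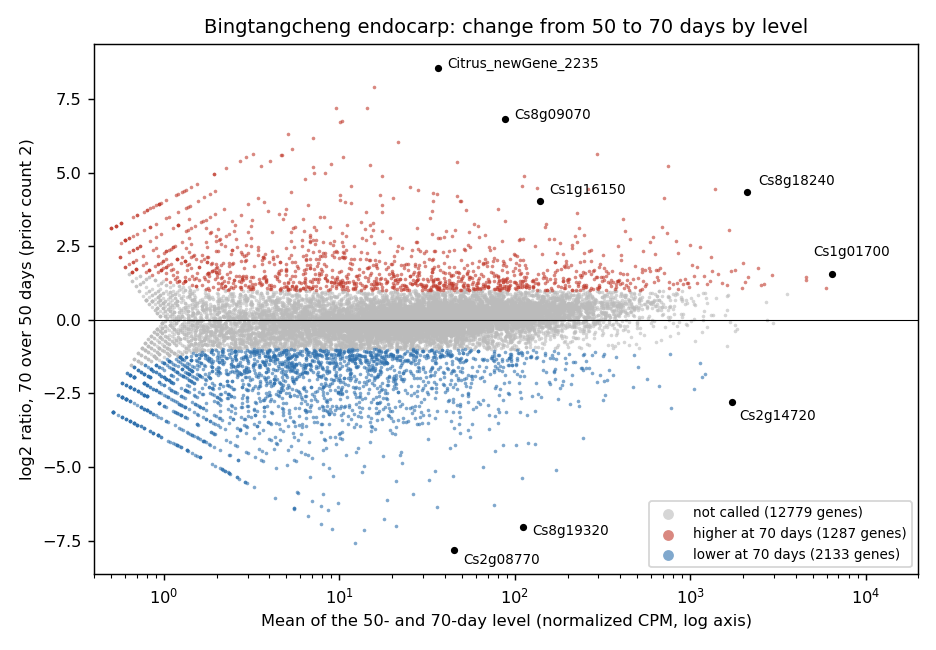
Log2 ratio of 70 over 50 days against the mean level in Bingtangcheng (normalized CPM, log axis), 1 point per expressed gene, with called genes in red (1287 higher) and blue (2133 lower) and 8 of the named genes in black. Lower genes crowd the left side, at low levels, and Cs8g18240 stands out among the abundant genes on the right.

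The direction of the calls changed with the level of the gene. In the lowest of 3 equal groups of expressed genes, with means up to 11.1 CPM, 10.6% of the genes were higher and 25.5% lower, with a median log2 ratio of -0.32. In the middle group the shares were 5.13% and 9.17%. In the highest group, from 43.4 CPM, they were 8.13% and 4.85%, with a median log2 ratio of 0.20. There were 439 higher and 262 lower genes in the highest group. The order there turned with total counts, which gave 270 and 403, and at a fold of 4, which gave 88 and 101. Of the 225 genes with a mean of at least 500 CPM, 70 were higher and 10 lower, 31.1% and 4.44%.

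Of the 6 genes with the largest gains in CPM, all but Cs8g18240 already stood at 1515 CPM or more at 50 days. Together these 6 genes held 1.54% of the fragments at 50 days (exact 95% binomial interval 1.53 to 1.54) and 3.57% at 70 days (3.56 to 3.58). They were chosen by this gain. In Dahongtiancheng they held 1.88% at 50 days and 2.88% at 70 days. Cs1g01700 (chromosome 1, 840737 to 843924, minus strand) was counted 51083 times at 50 days and 142729 times at 70 days, a 2.91-fold higher normalized level (95% counting interval 2.88 to 2.94). It was the most abundant gene of the 70-day library by fragments. In Dahongtiancheng it had 102947 fragments at 50 days and 67519 at 70 days, and its level there was 0.759 times that at 50 days (0.752 to 0.766).

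Cs2g02180 (chromosome 2, 819999 to 821458, minus strand) had 38256 and 100314 fragments and was 2.73-fold higher (2.70 to 2.76). Cs2g03110 (chromosome 2, 1358134 to 1359614, plus strand) had 59445 and 120494 fragments and was 2.11-fold higher (2.09 to 2.13). This last call is lost with total counts, which gave 1.73-fold. The calls of both genes, and that of Cs7g23510, are also lost when the median log2 ratio of each of 20 bins of level is removed, a step that takes out any shift with level. Both genes changed less in Dahongtiancheng, where their levels at 70 days were 1.22 and 1.19 times those at 50 days. Per length, the order differed from that by fragments. At 70 days Cs2g02180 stood at 8753 CPM per kilobase of the listed gene length, Cs2g03110 at 7989.9, Cs9g04300 at 7709 and Cs1g01700 at 4850.0. The authors' deposited FPKM put Cs9g04300 at 13328, above Cs2g03110 at 9724, so the order of these 2 genes depends on how length is entered.

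The other 3 of the largest gains were of similar size in both cultivars. Cs7g23510 (chromosome 7, 22204084 to 22207132, plus strand) went from 40244 to 98513 fragments, 2.55-fold higher (2.52 to 2.58) here and 2.81-fold in Dahongtiancheng. Cs9g04300 (chromosome 9, 2378257 to 2379723, plus strand) went from 23602 to 64936 fragments, 2.86-fold higher (2.82 to 2.91) here and 3.17-fold there. Cs8g18240 (chromosome 8, 20906302 to 20920121, plus strand) started at 198 CPM, with 3085 fragments at 50 days, and reached 60203 at 70 days. That is a 20.3-fold difference (19.6 to 21.1), beside 20.9-fold (20.3 to 21.5) in Dahongtiancheng, where it was counted 4604 and 83137 times. In the plot of levels its points at 50 days lie together, as do those at 70 days, for both cultivars.

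Among the lower genes, the largest losses in CPM were mostly shared with the other cultivar. Cs2g14720 (chromosome 2, 11609556 to 11615461, minus strand) had 47369 fragments at 50 days and 6576 at 70 days, a 6.92-fold lower level (6.74 to 7.10). Its loss in Dahongtiancheng was larger, 21.3-fold (20.5 to 22.2), from 61732 to 2500 fragments. Cs5g24930 (chromosome 5, 27763148 to 27844384, plus strand) went from 27490 to 5123 fragments, 5.15-fold lower (5.002 to 5.31) here and 4.69-fold lower there. Cs8g06360 (chromosome 8, 4177386 to 4178426, plus strand) was 3.87-fold lower (3.77 to 3.97), with 29005 and 7194 fragments. Cs6g20220 (chromosome 6, 19791228 to 19792794, minus strand) was 3.57-fold lower (3.48 to 3.66), with 29382 and 7900 fragments. Cs2g29090 (chromosome 2, 28641183 to 28645172, plus strand) was 2.80-fold lower (2.73 to 2.87), with 26083 and 8955 fragments. These last 3 genes were 2.24-fold, 5.68-fold and 4.001-fold lower in Dahongtiancheng.

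Cs5g13890 (chromosome 5, 11266098 to 11401674, plus strand) was the exception among the 6. It had 21553 fragments at 50 days and 2615 at 70 days in Bingtangcheng, 7.92-fold lower (7.60 to 8.25). In Dahongtiancheng it had 3757 and 3432, and the ratio was 1.06 (1.01 to 1.11). The 50-day Bingtangcheng library was thus the high one, and the other 3 lay between 2615 and 3757 fragments. The listed length of this gene is 826 bases while its span holds another 134751, and a listed gene inside that span, Cs5g13900, had no fragment in any library.

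**Figure D2:**
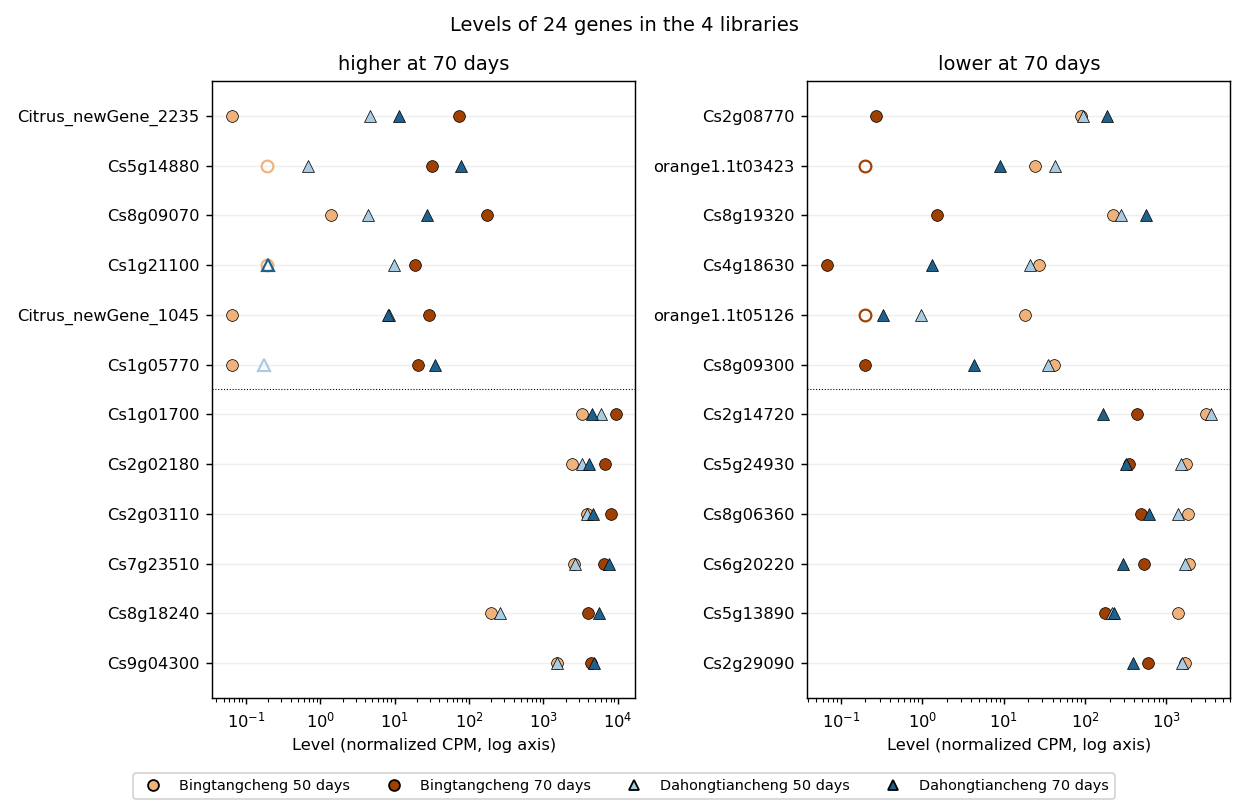
Level of 24 genes (normalized CPM, log axis) in the 4 libraries, circles for Bingtangcheng and triangles for Dahongtiancheng, light at 50 and dark at 70 days; above the dotted line are the 6 genes with the largest fold bound in each direction, below it the 6 with the largest CPM difference. Open symbols mark a count of 0, drawn at the level of 3 fragments; Cs8g18240 has the same shift in both cultivars, while Cs2g08770 and Cs8g19320 are low in the 70-day Bingtangcheng library and higher in each of the other 3.

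Genes were also ranked by the lower bound of the 95% counting interval of their fold, which favours large and well counted changes. Citrus_newGene_2235 (unplaced sequence, 11733210 to 11738328, minus strand) stood first among the higher genes, with 1 fragment at 50 days and 1091 at 70 days, 1136-fold higher (203 to 44910.1). It had 82 and 172 fragments in Dahongtiancheng, 2.43-fold higher there (1.86 to 3.20), so that its 50-day Bingtangcheng level was far below the other 3 libraries. Cs5g14880 (chromosome 5, 12857100 to 12859739, plus strand) had 0 fragments at 50 days and 470 at 70 days. With 3 fragments entered for the 0 this is a 163-fold higher level, and the 95% counting interval of the ratio allows at least 132-fold. In Dahongtiancheng it went from 12 to 1171 fragments, 113-fold higher (64.4 to 219).

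Cs8g09070 (chromosome 8, 7325613 to 7327542, plus strand) had 22 and 2619 fragments, 124-fold higher (81.7 to 198), beside 76 and 407 in Dahongtiancheng, 6.197-fold (4.84 to 8.03). Cs1g05770 (chromosome 1, 5556924 to 5558153, minus strand) had 1 and 311 fragments in Bingtangcheng and 0 and 522 in Dahongtiancheng. It was low at 50 days and high at 70 days in both. Cs1g21100 (chromosome 1, 24050431 to 24052317, minus strand) went in opposite directions, with 0 and 285 fragments in Bingtangcheng and 169 and 0 in Dahongtiancheng. By the 95% counting intervals the 70-day level was at least 79.9-fold higher in the first cultivar and at least 39.2-fold lower in the second. With 3 fragments entered for each 0 the folds were 98.9 and 48.7.

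The remaining one of these 6, Citrus_newGene_1045 (chromosome 5, 184750 to 185959, minus strand), shares its start and end with Citrus_newGene_985 on the plus strand. Citrus_newGene_1045 had 1 fragment at 50 days and 427 at 70 days in Bingtangcheng, 445-fold higher (79.4 to 17601.8), whereas Citrus_newGene_985 had 327 and 156, a ratio of 0.497. The sum over both models was 328 and 583 fragments, a 1.85-fold higher level (1.61 to 2.13), and in Dahongtiancheng it was 313 and 785, 2.90-fold higher (2.54 to 3.32). The sources used here do not say whether the libraries were stranded, so fragments of these 2 models cannot be told apart with certainty.

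Of the 6 lower genes with the largest bounds, 2 fell in Bingtangcheng against a level in Dahongtiancheng that was higher at 70 than at 50 days. Cs2g08770 (chromosome 2, 5783292 to 5809772, plus strand) had 1398 fragments at 50 days and 4 at 70 days, 336-fold lower (131 to 1234). In Dahongtiancheng it had 1639 and 2817 fragments. Cs8g19320 (chromosome 8, 21596984 to 21602088, minus strand) had 3443 and 23 fragments, 144-fold lower (95.7 to 227), beside 4877 and 8407. For both genes the 70-day Bingtangcheng library was the low one of the 4, and neither was called in Dahongtiancheng, where the ratio was 1.99 for each. Cs2g08770 overlaps Cs2g08800 on the same strand, which had 3841 and 4886 fragments in Bingtangcheng.

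Of the other 4, 3 were called lower in both cultivars, with smaller folds in Dahongtiancheng. Cs4g18630 (chromosome 4, 18195077 to 18196449, plus strand) had 428 fragments and 1 fragment, 411-fold lower (73.4 to 16272.9), beside 365 and 20 in Dahongtiancheng, 15.8-fold lower. Cs8g09300 (chromosome 8, 7515597 to 7517656, plus strand) had 656 and 3 fragments, 210.0-fold lower (71.5 to 1021), beside 617 and 65, 8.20-fold lower. The level of orange1.1t03423 (unplaced sequence, 52657776 to 52659119) dropped from 384 to 0 fragments, by the 95% counting interval at least 99.5-fold, or 123-fold with 3 fragments entered for the 0, beside 739 and 134, 4.77-fold lower. That of orange1.1t05126 (unplaced sequence, 83082574 to 83083565) dropped from 282 to 0, at least 72.9-fold by the interval, or 90.3-fold with 3 fragments entered, beside 17 and 5 fragments, which met no call.

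More lower than higher genes had at most 2 fragments at the stage of their lower level. At 50 days 89 of the higher genes had at most 2 fragments, 39 of them with 0, and their median count at 70 days was 28. At 70 days 239 of the lower genes had at most 2 fragments, 91 of them with 0, and their median count at 50 days was 29. At least 100 fragments on the side where they were detected were reached by 13 of the 89 and 21 of the 239. In Dahongtiancheng 38 of the 89 were called higher, 45 were not called and 6 were lower. Of the 239, 72 were called lower there, 144 were not called and 23 were higher. Over all genes expressed in Dahongtiancheng, 9.57% were called higher and 12.6% lower. The 89 and 239 genes reached the expression floor only through the library in which they were high. With medians of 28 and 29 fragments there, many lay near that floor. Neither a direction of switching nor a difference from the shares over all genes is therefore read from these counts. A gene with most of its counts in the 50-day library was Citrus_newGene_591 (chromosome 3, 18959265 to 18960075, plus strand), with 305 and 2 fragments in Bingtangcheng and 112 and 613 in Dahongtiancheng.

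Genes without introns were called more often than genes with long introns. The bases of a gene's span that its listed length leaves out were taken as intronic. Of 2218 expressed genes with none, 15.0% were higher and 20.9% lower. The genes with introns were split into 3 equal classes with a median of 703, 1955 and 4457 intronic bases. The share of higher genes was 10.3%, 5.84% and 4.36% in these classes, and that of lower genes 19.2%, 9.51% and 7.12%. Intronless genes also had a lower median level, 6.70 CPM, compared with 42.7 CPM in the class with the longest introns, and a shorter median length, 1014 against 2295 bases.

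The classes also differed within the groups of level, although these groups do not make the levels of the classes equal. In the lowest group the median level was 2.98 CPM for intronless genes and 4.92 CPM for genes with long introns. In the group of highest level, 16.6% of the 265 intronless genes were higher and 17.7% lower, whereas 5.31% and 2.26% of the 2298 genes with long introns were. In the lowest group the shares of higher genes were 16.3% and 5.15%, while the shares of lower genes were close, at 24.4% and 22.8%. In Dahongtiancheng, whose libraries are separate, 14.0% of the intronless genes of the same highest group were higher and 21.1% lower, against 5.13% and 3.13% with long introns. In the lowest group of Dahongtiancheng 13.9% of genes without introns were higher, 14.9% with short introns and 10.3% with long introns. The shares of lower genes there were 22.7% without introns and 16.8% with long introns. The Dahongtiancheng shares cover only genes also expressed in that cultivar. In the lowest group these were 1205 of 1375 genes without introns, 1945 of 2151 with short introns and 726 of 758 with long introns. The Bingtangcheng shares cover all of them, so the cultivars are not compared in this group. In the middle group of Dahongtiancheng 8.49% of intronless genes were higher, 9.31% with short introns and 3.86% with long introns. Length differs between these classes too, and its part in the result was not tested. Among the 89 higher genes nearly silent at 50 days 60.7% had no intron, and among the 239 lower genes nearly silent at 70 days 28.9%. The share was 25.8% of all higher genes, 21.7% of all lower genes and 13.7% of all expressed genes. The nearly silent genes reached the expression floor through 1 library alone, so nothing is read from their shares.

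**Figure D3:**
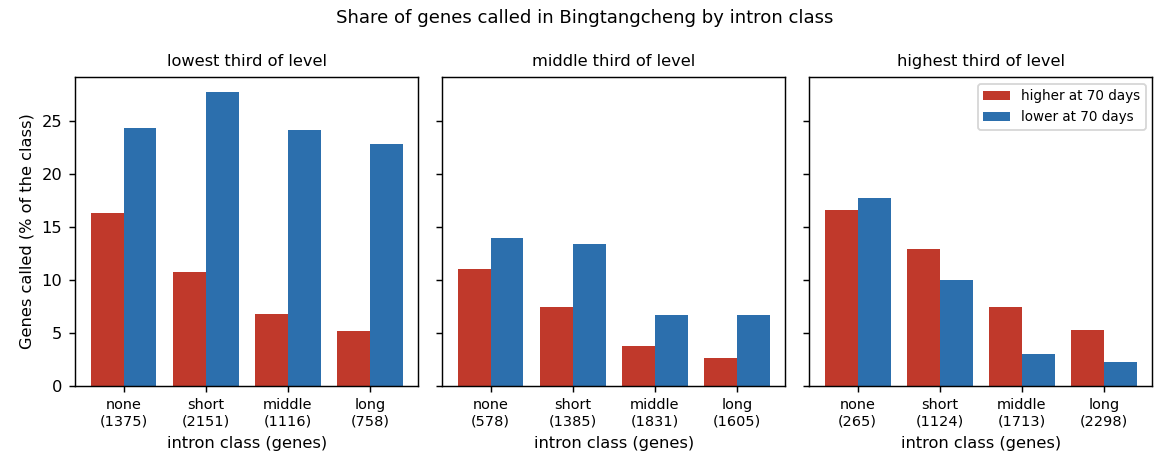
Share of expressed genes called higher (red) or lower (blue) at 70 days in Bingtangcheng, in percent of the class, by intron class (numbers of genes in parentheses) and group of mean level. In each group the bars of higher genes descend from no intron to long introns; in the lowest group the bars of lower genes stay between 22.8% and 27.8%.

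Calls were spread over the genome. The share of higher genes on the 9 numbered chromosomes ran from 6.88% on chromosome 1 to 8.98% on chromosome 5, and that of lower genes from 11.9% on chromosome 7 to 15.2% on chromosome 9. The strands were alike, with 8.05% higher and 13.7% lower on the plus strand and 7.84% and 12.6% on the minus strand. Models with identifiers of the form Citrus_newGene were called more often, 13.3% higher and 19.4% lower among 459 expressed, but they were also weakly expressed, with a median level of 3.10 CPM.

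Called genes had a neighbour called the same way more often than other genes did. On the numbered chromosomes, 15.996% of 1119 higher genes had an adjacent listed gene that was also higher, against 9.07% of the other listed genes. For the 1858 lower genes the share was 21.6%, against 14.7%. Counting expressed genes alone the shares were 23.5% against 14.7% for higher genes and 32.1% against 23.5% for lower genes. Near-identical copies can lie side by side and share fragments in counting, and whether that holds for these neighbours was not tested.

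The longest run of adjacent higher genes held 5 genes on chromosome 7, from 31914530 to 31929838. Cs7g32210 had 655 and 2420 fragments at 50 and 70 days, 3.85-fold higher (3.53 to 4.2003), while its ratio in Dahongtiancheng was 1.01 (0.929 to 1.096). Cs7g32220 had 172 and 1585, 9.595-fold higher (8.19 to 11.3), beside 5.81-fold there. Cs7g32230 had 114 and 504, 4.60-fold higher (3.75 to 5.69), beside 4.89-fold. Cs7g32250 and Cs7g32240 were 2.23-fold (1.97 to 2.52) and 3.56-fold (3.35 to 3.79) higher, beside 1.69-fold and 2.04-fold. The call of Cs7g32250 is lost with total counts, which gave 1.83-fold.

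The longest run of adjacent lower genes, also on chromosome 7, ran from 28994347 to 29036870 and was weakly expressed. Cs7g28520 had the most fragments of its 5 genes, 384 and 153, and was 2.41-fold lower (1.99 to 2.93). Cs7g28470 had 37 and 2, Cs7g28490 had 126 and 51, and Cs7g28510 had 16 and 2. Cs7g28480, with 69 and 32 fragments, was 2.07-fold lower (1.34 to 3.26), lost its call with median-of-ratios factors and was called higher at 70 days in Dahongtiancheng, with 23 and 47. After the level-bin medians were taken out, Cs7g28480, Cs7g28490 and Cs7g28510 lost their calls.

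When genes below the expression floor were passed over, the longest run held 7 lower genes on chromosome 5, from 28730158 to 28867055, chosen after its values were seen. Its most abundant member, Cs5g25920, had 1461 fragments at 50 days and 368 at 70 days, 3.81-fold lower (3.40 to 4.29). In Dahongtiancheng it was 7.91-fold lower (6.78 to 9.29). Cs5g25880 had 82 fragments and 1 fragment. Of the 7 genes, 6 were called lower in Dahongtiancheng too, and Cs5g25940, with 3 and 8 fragments there, was not called. After the same step, Cs5g25860, Cs5g25940 and Cs5g25950 lost their calls in Bingtangcheng. Cs5g25930 lies inside the span of Cs5g25920 on the same strand.

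**Figure D4:**
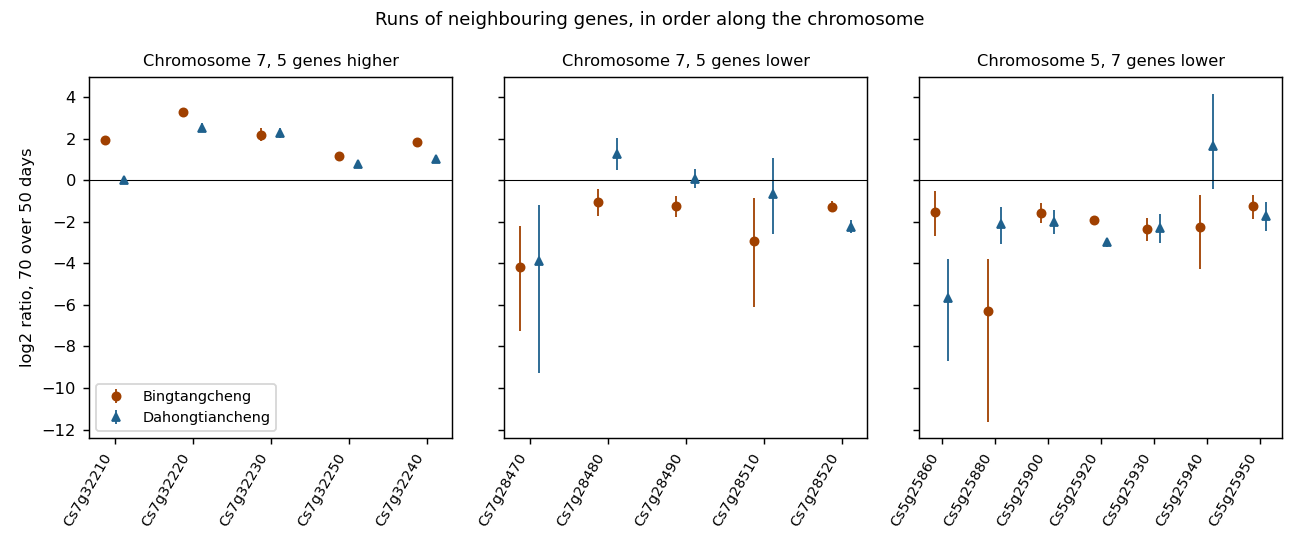
Log2 ratio of 70 over 50 days for the genes of 3 runs, in their order along the chromosome, in Bingtangcheng (circles) and Dahongtiancheng (triangles), with 95% exact counting intervals as bars. All Bingtangcheng points lie above 0 in the run of 5 higher genes and below 0 in the others; the Dahongtiancheng points of Cs7g28480 and Cs5g25940 lie above 0.

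The Bingtangcheng changes were next set beside those of Dahongtiancheng, a pair that shares no library with them. In Dahongtiancheng 1552 genes were higher (9.57% of 16211 expressed) and 2046 lower (12.6%). Of the 1287 genes higher in Bingtangcheng, 649 were also higher there, which is 50.4% of this list and 41.8% of the Dahongtiancheng list. Of the 2133 lower genes, 1195 were also lower, 56.0% and 58.4% of the lists. The median log2 ratio of the higher genes was 1.59 in Bingtangcheng and 1.06 in Dahongtiancheng, and that of the lower genes -1.95 and -1.37. The genes were chosen by their Bingtangcheng values, so no difference is read from these medians.

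The share called the same way did not go on rising with the size of the change. For higher genes it was 65.2% at 4-fold and above, 66.9% at 8-fold and 77.6% at 16-fold, and 18 of 26 at 32-fold. For lower genes it was 63.3% at 4-fold, 61.6% at 8-fold, 55.9% at 16-fold and 26 of 52 at 32-fold. The share called in the opposite direction went from 4.45% of all lower genes to 15.4% of those at 32-fold, 8 of 52 genes. For higher genes it went from 2.72% to 11.5%, 3 of 26 genes. Over all genes expressed in Dahongtiancheng, 9.57% were called higher and 12.6% were called lower. In the lowest group of level, 13.0% of the genes also expressed there were called higher and 20.9% lower. Whether level accounts for these shares was not tested.

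A difference in the change itself was counted from the ratio of ratios, with a fold of at least 2 and a 99% counting interval that excluded no difference. The log2 ratio in Bingtangcheng exceeded that in Dahongtiancheng in this way for 1011 genes (6.06% of 16692) and fell below it for 1225 (7.34%). Among the called genes of Bingtangcheng this held for 326 of the 1287 higher ones and 560 of the 2133 lower ones. These genes were chosen by the Bingtangcheng ratio, which also enters the ratio of ratios, so nothing is read from their shares. With 1 library for each cultivar and stage, cultivar and library cannot be told apart here.

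A set of 183 of the 1287 higher genes and 202 of the 2133 lower genes had a log2 ratio between -0.32 and 0.32 in Dahongtiancheng. The share over all genes in that range there is not given, so nothing is read from the size of this set. Apart from Cs2g02180 and Cs2g03110, its higher gene with the largest gain in CPM was Cs5g02320 (chromosome 5, 999992 to 1004956, minus strand). That gene had 4569 and 21059 fragments and was 4.80-fold higher (4.65 to 4.96). In Dahongtiancheng it had 9121 and 8736. Among the lower genes Cs5g13890 was followed by Cs2g19680 and Cs5g34500. Cs2g19680 (chromosome 2, 16532927 to 16783609, plus strand) had 8651 and 1256 fragments, 6.61-fold lower (6.23 to 7.02), beside 5147 and 4967. The size of its loss depends on the measure, with a log2 ratio of -2.72 from counts and -3.33 from the deposited FPKM. Its listed length is 4864 bases while its span holds another 245819, and Cs2g19690 inside that span had no fragment in any library. Cs5g34500 (chromosome 5, 35308666 to 35310622, plus strand) had 5204 and 144 fragments, 34.7-fold lower (29.4 to 41.2), beside 4877 and 3472.

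Genes called in opposite directions numbered 35 among the higher (2.72%) and 95 among the lower genes (4.45%) of Bingtangcheng. Over all genes expressed in Dahongtiancheng, 12.6% were called lower and 9.57% higher. The genes with opposite calls were weakly expressed, with a median level of 3.20 and 3.28 CPM. Cs3g05810 (chromosome 3, 7653725 to 7656145, plus strand) was 3.49-fold higher in Bingtangcheng (3.06 to 3.99), with 292 and 979 fragments, and 2.61-fold lower in Dahongtiancheng, with 1757 and 581. The counts of orange1.1t03258 (unplaced sequence, 50087571 to 50090903) were 148 and 720 in Bingtangcheng and 313 and 0 in Dahongtiancheng. Cs7g25330 (chromosome 7, 25670607 to 25671884, plus strand) had 31 and 398 fragments, 13.4-fold higher (9.27 to 19.9), beside 181 and 0.

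In the other direction, Cs5g18620 (chromosome 5, 18910255 to 18912037, plus strand) had 3622 and 609 fragments in Bingtangcheng, 5.71-fold lower (5.24 to 6.23), and 1958 and 3881 in Dahongtiancheng. Cs2g03780 (chromosome 2, 1760534 to 1761328, minus strand) was 2.74-fold lower (2.58 to 2.90), with 4473 and 1569 fragments beside 2679 and 5457. The level of orange1.1t03504 (unplaced sequence, 53698712 to 53699697) was 2.48-fold lower (2.33 to 2.64), with 3690 and 1428 fragments beside 2310 and 5732. For these 3 genes the 50-day library was the higher one in Bingtangcheng and the 70-day library in Dahongtiancheng.

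**Figure D5:**
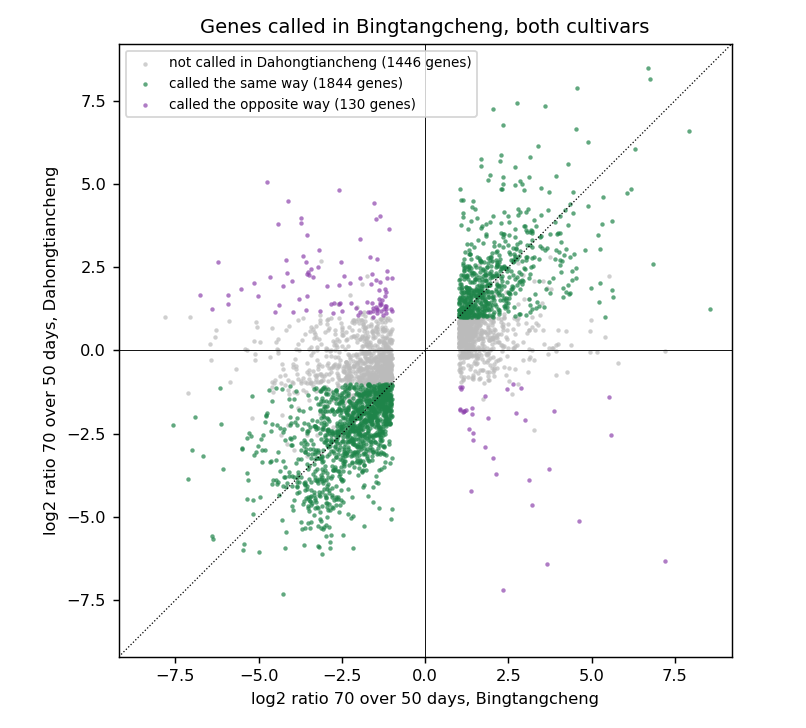
Log2 ratio of 70 over 50 days in Dahongtiancheng against that in Bingtangcheng, 1 point per gene called in Bingtangcheng, with the line of equal ratios dotted. The empty band in the middle comes from the 2-fold rule; green points were called the same way in both cultivars, grey points were not called in Dahongtiancheng and purple points, 35 on the right and 95 on the left, were called the opposite way.

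Some abundant genes kept their level with TMM factors. Of the 225 genes with a mean of at least 500 CPM, 40 (17.8%) had a log2 ratio between -0.32 and 0.32. Over all expressed genes this share was 40.3%. Among the 225, the ratio was closest to 1 for Cs2g21430, Cs1g09840 and Cs4g06850. Cs2g21430 (chromosome 2, 18455176 to 18464168, plus strand) stood at 603 CPM at both stages, a ratio of 1.0004 (0.972 to 1.03). Cs1g09840 (chromosome 1, 11597164 to 11601786, plus strand) stood at 753 and 754 CPM. Cs4g06850 (chromosome 4, 4313661 to 4318490, plus strand) stood at 2719 and 2729 CPM. In Dahongtiancheng the 70-day levels of these 3 genes were 0.638, 0.733 and 0.741 times the 50-day levels. The third most abundant gene of the 50-day library by fragments, orange1.1t01755 (unplaced sequence, 27983314 to 27986157), had 47862 and 42532 fragments and a ratio of 0.925 (0.913 to 0.937). These ratios move together with the scaling of the libraries. With total counts those of Cs2g21430, Cs1g09840 and Cs4g06850 were 0.820, 0.822 and 0.823.

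Cs1g16150 (chromosome 1, 19246312 to 19254259, plus strand) was among the higher genes in both cultivars. It went from 250 to 3955 fragments in Bingtangcheng, 16.5-fold higher (14.5 to 18.8), and from 3707 to 24911 in Dahongtiancheng, 7.78-fold higher (7.51 to 8.05). Its level was lower in Bingtangcheng at both stages, with 16.05 CPM against 213 CPM at 50 days and 264 CPM against 1659.6 CPM at 70 days.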

How the data were processed

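Each deposited file holds 1 library. Its columns are, per the file headers, raw fragment counts, scaled counts and FPKM values by gene. The sources used here name no aligner, counting tool, genome build or strand setting. The deposited counts were used as they stand, after 1 repeated header line per file was dropped. Library totals ran from 14040916 to 16445383 fragments. The authors' scaled counts, a signal with 1 factor for each library in over 97% of genes with at least 50 fragments (within 1%), were not used further. The deposited FPKM served as an alternative, with 0.1 added before log2.

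TMM factors (edgeR 4.0.16 in R 4.3.3) were computed over all 4 libraries, since both cultivars are set side by side. Log2 ratios used a prior count of 2, and the 2-fold rule was applied to them; printed folds are ratios of normalized counts without it. Intervals are exact conditional (Clopper-Pearson) intervals (scipy 1.17.1), 99% for calls and 95% where printed. Against a count of 0, the start of the 95% interval is given as the bound, beside the fold with 3 fragments entered for that library. The ratio of ratios used a normal interval on the log scale, from counts plus 0.5. Fragments are not independent molecules here, and intervals do not hold the spread between fruits or trees. No test was run, because each group has 1 library. The scripts were tested on simulated data.

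Of the identifiers 0 matched the 29331 genes of the reference table, so the planned gene lists and tissue markers could not be filled. Genes were named by rule: the 6 per direction with the largest interval bound, the 6 with the largest CPM difference, the 3 with the most fragments among those at 2 or fewer in the other library, the 3 most abundant per library, the 3 steadiest above 500 CPM, the longest run of neighbours per direction, the 3 per direction with a log2 ratio between -0.32 and 0.32 or an opposite call in Dahongtiancheng, and Cs1g16150. The comparison, rules and groupings were chosen with earlier results of these data known, and the intron classes after the data were seen. Alternatives covered scaling, expression floor, fold, interval, FPKM and the removal of the medians of 20 bins of level.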

Additional observations from a re-analysis of the deposited data

Results flagged for a closer look

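For 9 of the named genes, the single Bingtangcheng pair and the single Dahongtiancheng pair were called in opposite directions. Of these, 3 per direction were named because their calls were opposite, so the number of such genes is no result. The difference between the cultivars was not tested, since each cultivar and stage has 1 library. The values are the log2 ratio of 70 over 50 days in Bingtangcheng minus that in Dahongtiancheng, with a count of 0 entered as 3 fragments. Where a count of 0 enters, this value is no bound, and a 95% counting interval with 0.5 added to each count is given beside it. Higher in Bingtangcheng and lower in Dahongtiancheng were Cs1g21100, with 12.23 (interval 11.7 to 23.1), Cs7g25330 with 9.44 (7.97 to 16.1), orange1.1t03258 with 8.84 (7.41 to 15.4) and Cs3g05810 with 3.19. Lower in Bingtangcheng and higher in Dahongtiancheng were Citrus_newGene_591, with -9.86 (95% counting interval -11.4 to -7.71 around -9.53 when 0.5 is added to each count), Cs5g18620 with -3.71, orange1.1t03504 with -2.83, Cs2g03780 with -2.69 and Cs7g28480 with -2.29. The call of Cs7g28480 in Bingtangcheng is lost with median-of-ratios factors.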

How the results depend on the processing

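No paired analysis was possible because each group has 1 library, and for the same reason no library could be left out. The 1287 higher and 2133 lower genes stayed within 1.5 times under all scalings tried, from 872 and 2997 with total counts to 1318 and 2107 with median-of-ratios factors, and lower genes outnumbered higher ones under every alternative tried. A floor of 5 CPM left 1409 lower genes. A fold of 4 left 417 higher and 1011 lower genes, and a fold of 1.5 gave 2426 higher genes. For the ratio of ratios at a fold of 4, the log2 ratio in Bingtangcheng exceeded that in Dahongtiancheng for 257 genes and fell below it for 524. At a fold of 1.5 these numbers were 2135 and 2079. The order turned at that fold and with the medians of 20 level bins removed, 1089 and 1044 against 1011 and 1225. By group of level, a fold of 4 left 260 higher and 718 lower genes in the lowest, 69 and 192 in the middle and 88 and 101 in the highest, where the order turned; total counts gave 175 and 754 in the middle and 270 and 403 in the highest, where it turned too. Removing these medians gave 1422 higher and 1812 lower genes, 44.0% higher against 37.6%, and takes out any shift with level by construction. No log2 ratio of a called named gene changed sign. For the count scalings the largest move was 0.29; for the deposited FPKM it was 2.04, at Cs1g05770.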
